A study of Mus musculus with 11 samples.

Results

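The genes of 3 C/EBP transcription factors, Cebpa, Cebpd and Cebpg, were examined for open chromatin in lung epithelial cells of fetal mice lacking Prdm3 and Prdm16. Members were all peaks of the 11 ATAC-seq peak lists (build mm10) whose nearest protein-coding gene body, at most 100 kb away, was one of these genes, and a peak that touched a member and another gene was kept. They numbered 188 of 981265 peaks, 118 at Cebpa, 47 at Cebpd and 23 at Cebpg. Several summits within 1 interval count as separate peaks in these lists. ATAC-seq maps DNA that a transposase can cut.

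Lungs were taken at E17.5 and cells carrying EpCAM, an adhesion molecule on epithelium, were captured on magnetic beads. The Prdm3/16KO group, called the knockout here, has 5 libraries from fetuses with floxed Prdm3 and Prdm16 removed by ShhCre, an allele that expresses Cre recombinase from the Shh locus and so acts where Shh is active, which includes the lung epithelium. The Control group has 6 libraries, and its exact genotype is not given in the sources used here. In the cross described, both parents carried Prdm3 fl/fl, the Cre-positive father was Prdm16 fl/wt and the mother Prdm16 fl/fl, so all fetuses inherited floxed Prdm3 on both chromosomes. The sources do not say whether controls carried Cre or whether libraries were made from different fetuses, so p-values measure only the spread between these libraries, which may be technical. No batch is given, so a batch and the genotype cannot be told apart. The comparison asks how accessibility differs between the genotypes in a study of alveolar differentiation under NKX2-1, a homeobox factor that lung epithelium depends on.

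C/EBP factors are basic leucine zipper proteins that bind DNA as dimers with themselves or with relatives. Cebpa encodes an activator that the fetal mouse lung needs for the maturation of alveolar type 2 cells, the producers of surfactant. Cebpd encodes a factor that glucocorticoids and inflammatory signals induce, and Cebpg one that lacks an activation domain of its own and pairs with other C/EBP proteins and with ATF4.

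Cebpa (gene 12606, chromosome 7, 35119293 to 35121928) and Cebpg (gene 12611, chromosome 7, 35046422 to 35056566) point away from each other, with 62727 bp between their starts. Cebpd (gene 12609) lies on chromosome 16 at 15887286 to 15889545. The strongest peak at Cebpa and at Cebpg had its summit in the 250 bases before the gene start in every library, so these bases are shown, from RefSeq, build GRCm38.p6 (the assembly of mm10). Capitals mark the matches to the motifs searched on both strands, namely TATAAA at Cebpa and the CCAAT box at Cebpg, read there on the opposite strand as ATTGG.
Cebpa, chr7:35119043-35119292, plus strand: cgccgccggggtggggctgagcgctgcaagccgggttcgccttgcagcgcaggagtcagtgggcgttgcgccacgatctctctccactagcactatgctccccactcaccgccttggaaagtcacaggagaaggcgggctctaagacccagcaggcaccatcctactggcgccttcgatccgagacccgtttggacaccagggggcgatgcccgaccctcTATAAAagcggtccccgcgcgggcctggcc
Cebpg, chr7:35056567-35056816, minus strand: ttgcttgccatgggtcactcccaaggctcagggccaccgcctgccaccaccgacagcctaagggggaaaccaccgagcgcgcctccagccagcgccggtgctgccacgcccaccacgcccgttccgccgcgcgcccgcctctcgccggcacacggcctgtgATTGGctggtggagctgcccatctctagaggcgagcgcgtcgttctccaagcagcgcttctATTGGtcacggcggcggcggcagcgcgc

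The TATA box of Cebpa begins 30 bp before the start, and TATAAA is held by 12.4% of the 32817 promoter stretches of this length in the table. Those of Cebpg begin 89 and 28 bp before the start, and CCAAT is held by 33.8% of the stretches. Both are rich in CpG, with 22 CpG at Cebpa and 29 at Cebpg against a median of 6. Neither stretch holds the NKX2-1 letters CACTTGA (2.69% of stretches), the C/EBP letters TTGCNNAA (9.57%), the EVI1 (PRDM3) letters AAGATAA (3.10%) or TTCNNNGAA, bound by STAT factors (7.02%). No match was found either for GGGCGG (32.7%), TGANTCA (6.75%), TGACGTCA (1.55%) or the C/EBP-ATF letters TGATGNAA (3.45%). A match or its absence describes these letters only.

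Peak lists hold no read counts, so depth is unknown, and strength was expressed as a rank score. All lists were cut to the 72935 strongest peaks of each library by the authors' -log10 p, since no list was shorter. A score of 1 is given to the top peak, values close to 0 to the weakest, and 0 to a region with no peak. The lists as deposited held 72935 to 85704 peaks in knockouts and 79525 to 112297 in controls. Regions are windows of 400 bp around summits, and 83262 with a peak in at least 3 libraries were tested by limma. Marker genes were read as a peak within 1 kb of a gene end. All 5 epithelial markers (Epcam, Cdh1, Krt8, Krt18, Nkx2-1) were open in all 11 libraries. Of 5 mesenchymal markers 3 were open in all and Pdgfra in none, and Pdgfrb was open in 3 of 5 knockouts and 6 of 6 controls. Of 5 endothelial markers only Kdr was open, in all libraries, and Pecam1, Cdh5, Tie1 and Emcn were at 0. Of 5 immune markers Spi1 was open in all libraries and Ptprc, Csf1r and Tyrobp in none, while Cd68 was open in 0 of 5 knockouts and 5 of 6 controls. The part of Pdgfrb- or Cd68-positive cells in the results was not tested. An open gene end is not a measure of expression, and the lists do not show whether the targeted exons were lost.

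Of 16 regions tested at the 3 genes, 5 were lower and 2 higher in the knockout, or 43.8% called, against 37.8% of all regions. In the whole series 20.8% of regions were lower and 17.0% higher, so the share called at these genes was near that of all regions. The share depends on location. Within 1 kb of a gene end 16.2% of regions in the series were called, and of the 9 member regions there 2 were lower and 1 higher. With 16 regions no excess is read from these shares. Cebpa had 4 lower and 1 higher of 10 regions, Cebpd 1 lower of 4, and Cebpg 1 higher of 2. The higher Cebpa region had a peak in knockouts only and so met the minimum of 3 libraries through that group alone. The median difference (knockout minus control) was -0.06 over the 16 regions and -0.02 over all regions. One further Cebpa region, 11523 bp from the gene, had a peak in 1 control only and was not tested. In 12 of the 16 regions all 11 libraries had a peak, in some cases through the interval of a neighbouring summit. The region just inside Cebpa had its own summit in 1 library, and those starting at 15886508 and 15887439 at Cebpd in 9 and 10. Differences at the 12 were thus of rank, with presence read as any overlapping peak. Groups did not overlap in 4 of the 16, against 22.9% of all regions, and 3 of the 4 carry a separate score, since the fourth shares that of the Cebpa start. Of the 7 regions between genes, all at Cebpa, 3 were lower and 1 higher, where the series had 23.0% lower, 19.5% higher and 42.5% called either way. In bulk cells, fewer open cells and less opening per cell cannot be told apart.

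Cebpa, the activator of type 2 cell maturation, lost rank in the knockout at its start, at a site upstream and at sites downstream, and 1 weak site had peaks in knockouts only. The region at the start (chromosome 7, 35118958 to 35119357), which spans the stretch printed above, had rank scores of 0.849, 0.835, 0.911, 0.887 and 0.869 in knockouts 1 to 5. In controls it had 0.916 at the lowest, 0.928 at the median and 0.957 at the highest. Every knockout was below every control, though the nearest values were close. In places of the list, the Cebpa peak stood at 6477 to 12011 in knockouts and at 3135 to 6154 in controls. The mean score fell to 0.870 ± 0.030 in knockouts, against 0.933 ± 0.018 in controls (SD, n = 5 and 6), a difference of -0.06 with SE 0.014 (limma adjusted p = 0.00299). It was thus open in all libraries and among the stronger peaks of each. The call was lost with scores centred per library (difference -0.04, limma adjusted p = 0.09) and with peaks ranked by the authors' fold enrichment (difference -0.10, limma adjusted p = 0.152).

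Summit positions at the Cebpa start overlapped between the groups. The summit lay 117 to 140 bp before the start in knockouts and 129 to 147 bp before it in controls. Interval width was 809 to 1203 bp in knockouts and 691 to 1640 bp in controls. The region next to it inside the gene, at 35119401 to 35119800, had a summit of its own in 1 library only, among the peaks used. It took the score of the start summit in the others and adds no separate measurement (limma adjusted p = 0.243). Likewise the region 740 bp before the start had a peak in 1 knockout and 2 controls, and both controls took the score of the start summit.

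**Figure D1:**
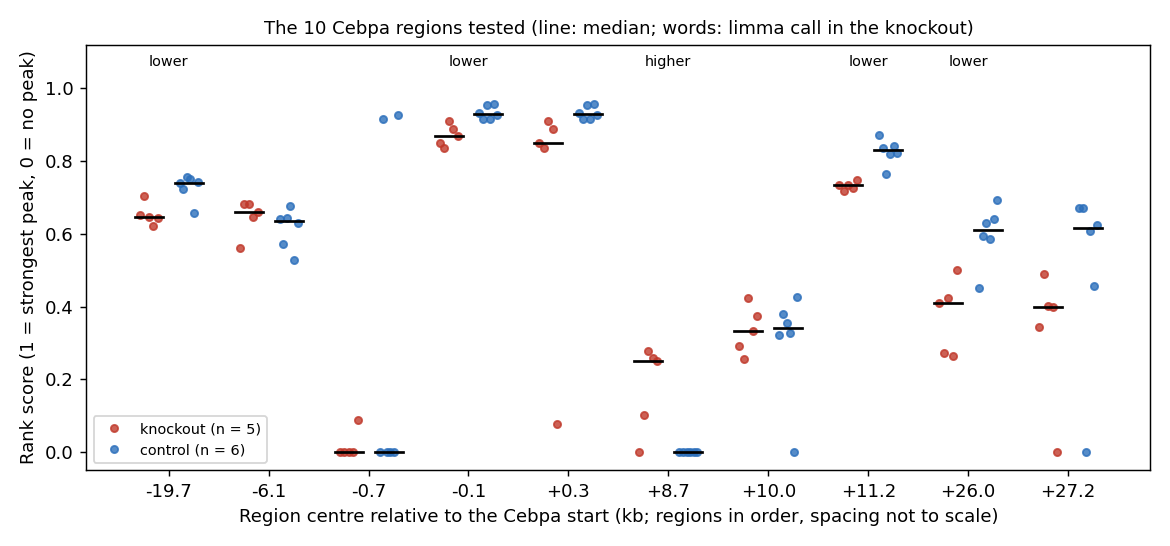
Rank scores at the 10 Cebpa regions in every library, on the vertical axis from 0 to 1, in order of the distance of the region centre from the Cebpa start in kb on the horizontal axis (spacing not to scale). Points are libraries, knockout left of control, lines are medians, and words give the limma call. The start region, the region just inside the gene, which mostly carries the same scores, and the one at +11.2 kb have no overlap between groups, and the region at +8.7 kb has points above 0 in knockouts only.

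Downstream of Cebpa the region 11.2 kb from the start (35130294 to 35130693) had the smallest p of the Cebpa regions. Its rank scores were 0.734, 0.717, 0.735, 0.727 and 0.747 in knockouts 1 to 5. Controls had 0.765 at the lowest, 0.829 at the median and 0.873 at the highest. The groups did not overlap, and the mean fell to 0.732 ± 0.011, against 0.826 ± 0.036 in controls (SD, n = 5 and 6, difference -0.09, SE 0.019, limma adjusted p = 0.00156). The region 26.0 kb from the start (35145110 to 35145509) had scores of 0.410, 0.271, 0.423, 0.264 and 0.499 in knockouts. It had 0.450, 0.612 and 0.692 at the lowest, median and highest in controls. The highest knockout lay above the lowest control, and the mean fell to 0.374 ± 0.103, against 0.599 ± 0.082 (SD, n = 5 and 6, difference -0.23, SE 0.057, limma adjusted p = 0.00698). Neither call held with peaks ranked by fold enrichment (limma adjusted p = 0.311 at 11.2 kb and 0.785 at 26.0 kb). At 27.2 kb (35146309 to 35146708) the means were 0.327 ± 0.190 and 0.505 ± 0.260, and the difference of -0.18 did not pass (limma adjusted p = 0.267), with 1 library of each group lacking a peak.

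Upstream, 19.7 kb before the start (35099399 to 35099798), scores were 0.651, 0.703, 0.646, 0.621 and 0.643 in knockouts. Controls had 0.658 at the lowest, 0.740 at the median and 0.757 at the highest. The mean was 0.653 ± 0.030 in knockouts and 0.728 ± 0.036 in controls (SD, n = 5 and 6, difference -0.08, SE 0.026, limma adjusted p = 0.0347). Knockout 2 overlapped with control 5. This call is close to the threshold. It was lost without any 1 of knockouts 1, 3, 4 or 5 or controls 1, 3, 4 or 6, and the adjusted limma p over these and the other alternatives ran from 0.011 to 0.118. With the replicate number as a block the difference was -0.07 (limma adjusted p = 0.107).

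The weak site of Cebpa lay 8.7 kb downstream of the start (35127811 to 35128210). No control had a peak there among the strongest 72935. The knockouts had scores of 0, 0.101, 0.277, 0.260 and 0.251. Only 4 of 5 knockouts thus had the peak, and it was weak, at places 52764 to 65549 of the list. The mean was 0.178 ± 0.122 in knockouts and 0 in controls (SD, n = 5 and 6). The region entered the table through the knockouts alone, so its limma call (adjusted p = 0.0159) and its Fisher's exact call (exact adjusted p = 0.0321, with 47.2% of testable regions called) restate that filter, and with a minimum of 5 libraries it was not tested. In the lists as deposited, 4 knockouts and 1 control had a peak there.

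Sites between these showed no called difference. The region 6.1 kb before the start (35113015 to 35113414) averaged 0.646 ± 0.050 in knockouts and 0.615 ± 0.054 in controls (SD, n = 5 and 6, limma adjusted p = 0.533). At 10.0 kb after the start (35129102 to 35129501) the means were 0.335 ± 0.067 and 0.302 ± 0.153 (limma adjusted p = 0.757), and 1 control had no peak. Over its 10 regions Cebpa had a mean score of 0.484 ± 0.044 in knockouts and 0.575 ± 0.072 in controls, a difference of -0.0905. It was -0.0493 with overlapping peaks merged or with a summit required inside the region, -0.0434 ranked by fold enrichment and -0.058 at a -log10 q of at least 5, and regions next to the start share its score. The stretch from 30000 to 45000 bp after the start, where a Cebpa enhancer of mouse blood progenitors is known, held 4 peaks over the 11 lists as deposited.

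**Figure D2:**
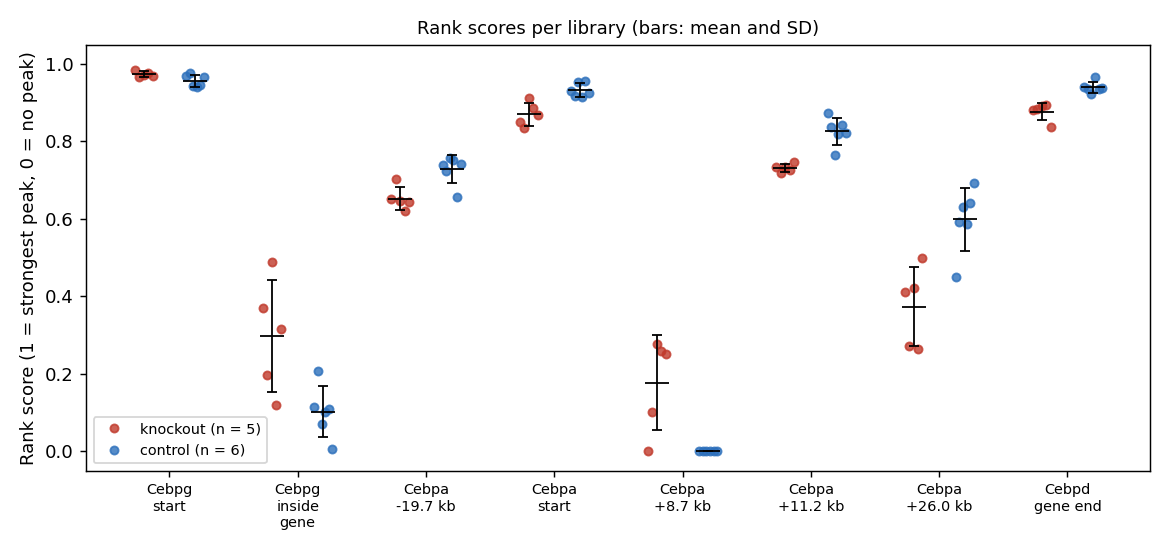
Rank scores of each library (points) at the called regions of Cebpg, Cebpa and Cebpd and at the strongest gene-end region of each gene. Other gene-end regions are not shown. Black bars give the mean and SD, with knockouts (n = 5) left of controls (n = 6). Distances are kb from the Cebpa start. The start peaks of Cebpg and Cebpa and the Cebpd gene-end peak all lie at 0.835 or above, and knockout points are below all control points at the Cebpa start, at +11.2 kb and at the Cebpd gene end.

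Cebpd, the glucocorticoid- and cytokine-induced member, had a single interval in every library, across the gene end at 15887286. It spanned 1598 to 1640 bp in knockouts and 1611 to 1626 bp in controls. Gene end here means either end of a gene body, so it includes starts. At Cebpd this end is the lower coordinate, from which distances were measured as from a start. The main summit of Cebpd fell 86 to 104 bp outside that end in knockouts and 90 to 97 bp in controls. The region on this summit (chromosome 16, 15886989 to 15887388) had rank scores of 0.880, 0.883, 0.891, 0.894 and 0.838 in knockouts 1 to 5. Controls had 0.923 at the lowest, 0.937 at the median and 0.966 at the highest. No knockout reached a control. The place in the list was 7721 to 11816 in knockouts and 2458 to 5583 in controls. The mean fell to 0.877 ± 0.023 in knockouts, against 0.940 ± 0.014 in controls (SD, n = 5 and 6, difference -0.06, SE 0.012, limma adjusted p = 6.84e-04). Among regions within 1 kb of a gene end, 9.62% were lower and 6.61% higher in the series, 16.2% in all. Of the 9 such regions at the 3 genes, 2 were lower, the main summits of Cebpa and Cebpd, and 1 higher. Ranked by fold enrichment the difference was -0.01 and was not called (limma adjusted p = 0.655).

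Weaker summits flanked the main one at Cebpd. At 579 bp outside the gene (15886508 to 15886907) the median score was 0.152 in knockouts and 0.124 in controls. Knockout 4 and control 6 had no summit there among the peaks used and took the score of the main summit, 0.894 and 0.938. Inside the gene, the region at 15887439 to 15887838 had medians of 0.164 and 0.170, and control 4 took 0.966 from the main summit. The region at 15887927 to 15888326 had its own summit in all 11 libraries and averaged 0.150 ± 0.099 in knockouts and 0.0685 ± 0.069 in controls. None of these 3 was called (limma adjusted p = 0.976, 0.511 and 0.267). By limma 0 Cebpd regions were called higher, also 0 at an unadjusted p below 0.05. All libraries had a peak in each, so Fisher's exact test could pass at 0 of them. The mean over the 4 regions was 0.363 ± 0.094 in knockouts and 0.391 ± 0.112 in controls, a difference of -0.0277 that was smaller than either SD. It was -0.0683 without knockout 4, -0.00129 without control 6, 0.000215 without control 4 and 0.00698 with a summit required inside the region, so no direction is read from it.

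**Figure D3:**
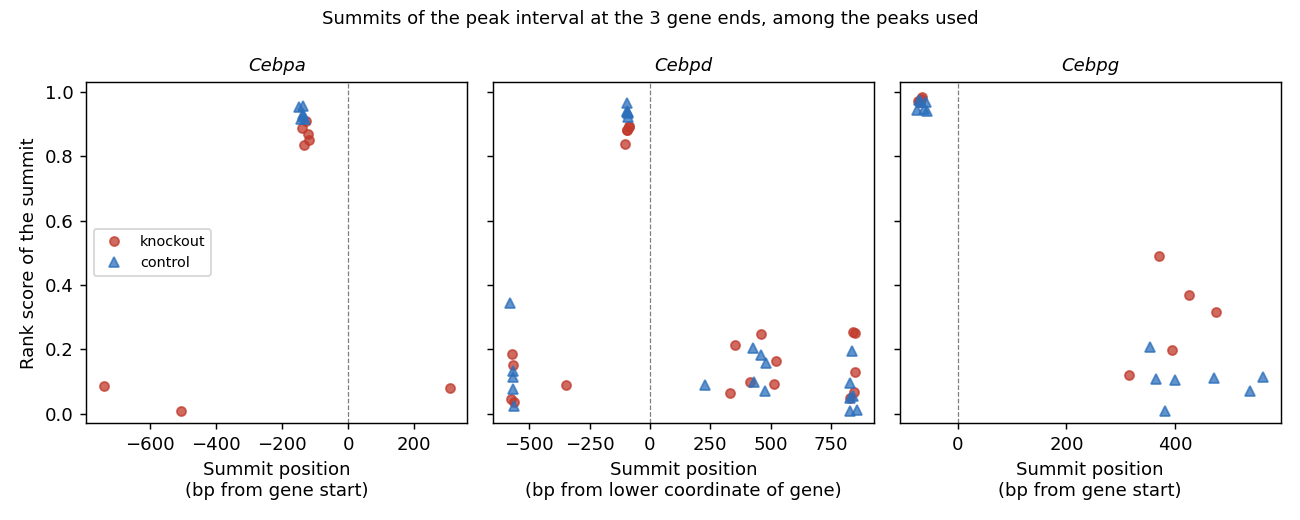
Summits of the peak interval at the gene end of Cebpa (14 of 22 deposited), Cebpd (44 of 47) and Cebpg (23 of 23) that were among the peaks used, each with its distance in bp from the gene start (for Cebpd from its lower coordinate, dashed lines) and its rank score in each library. Circles are knockouts and triangles controls. The main summit lies just outside the gene at all 3, below the controls in knockouts at Cebpa and Cebpd, and the weaker summit inside Cebpg reaches 0.490 in knockouts and 0.208 in controls.

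Cebpg, the partner without an activation domain, held the strongest of the 3 gene-end peaks and was not called lower. Its start region (chromosome 7, 35056432 to 35056831), which spans the other printed stretch, had scores of 0.985, 0.968, 0.972, 0.977 and 0.968 in knockouts. Controls had 0.941 at the lowest, 0.957 at the median and 0.977 at the highest. The groups overlapped, with means of 0.974 ± 0.007 and 0.957 ± 0.015 (SD, n = 5 and 6, difference 0.02, SE 0.0081, limma adjusted p = 0.117). It was called higher with scores centred per library (difference 0.04, limma adjusted p = 0.019) and with ranks by fold enrichment (difference 0.10, limma adjusted p = 0.00912). The summit lay 66 to 73 bp before the start in knockouts and 57 to 75 bp in controls. A predicted protein-coding gene, Gm45095, overlaps this end of Cebpg, and assigned by its centre the region would fall to that gene.

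Inside Cebpg, a second summit of the same interval gave the region at 35055996 to 35056395. Its scores were 0.369, 0.196, 0.490, 0.120 and 0.315 in knockouts. Controls had 0.0066 at the lowest, 0.106 at the median and 0.208 at the highest. Knockouts 2 and 4 lay within the control range, and the mean was 0.298 ± 0.145 against 0.102 ± 0.066 in controls (SD, n = 5 and 6, difference 0.20, SE 0.070, limma adjusted p = 0.0407). The call was lost with the lists as deposited (difference 0.07, limma adjusted p = 0.505), with overlapping peaks merged (difference 0.02, limma adjusted p = 0.0988) and with the replicate number as a block (difference 0.18, limma adjusted p = 0.12). Ranked by fold enrichment it turned to lower in knockouts (difference -0.57, limma adjusted p = 0.00755), where 5 of 6 controls and 0 of 5 knockouts carried the score of the start summit. It was also lost without any 1 of knockouts 1, 3 or 5 or controls 1, 3, 4, 5 or 6, where the difference was 0.15 to 0.20. By limma 0 Cebpg regions were called lower, also 0 at an unadjusted p below 0.05. Again 0 could pass Fisher's exact test. Over its 2 regions Cebpg had a mean score of 0.636 ± 0.073 in knockouts and 0.53 ± 0.036 in controls, a difference of 0.106. Ranked by fold enrichment this difference was reversed, at -0.237.

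Ordered by mean score, the gene-end peaks ran Cebpg, then Cebpd and Cebpa, with 0.974, 0.877 and 0.870 in knockouts and 0.957, 0.940 and 0.933 in controls. In both groups Cebpd and Cebpa differed by less than their SD. Over all regions of a gene, the genes whose mean score per library lay closest to that of Cebpa were Snx25, Scfd2 and Gm30679, with root mean square differences of 0.036, 0.042 and 0.044 over 11 libraries among 9018 other genes. For Cebpd they were Bicdl2, Plxdc2 and Pcbp1 (0.053, 0.058 and 0.060), and for Cebpg Ifnar1, Kat5 and Ccnl1 (0.041, 0.045 and 0.046).

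Genes linked to these factors were counted from the same fit, in lists chosen with earlier results of these data known. Where a named region had almost no peak in 1 group, it met the minimum of 3 libraries through the other, so its values are given without a p. Such regions stay in the counts of lower and higher regions, both for these lists and for all regions. The lists were not split by location. In the series 16.2% of regions within 1 kb of a gene end and 42.5% of those between genes were called. A share that differs from that of all regions may thus reflect location, which was not tested. Of 68 regions at 12 surfactant and type 2 genes known as C/EBP targets, 26 were lower and 15 higher, or 60.3% called against 37.8% of all regions, with a median difference of -0.07. Lower regions were found at 10 of the genes and higher ones at 8. At Slc34a2, which encodes a phosphate transporter, 6 of 10 regions were lower and 2 higher, one of them at 0.798 ± 0.049 in knockouts and 0.0223 ± 0.055 in controls (SD, n = 5 and 6). All 3 regions of Lamp3, a lamellar body protein, were lower, with one at 0.601 ± 0.057 in knockouts and 0.895 ± 0.016 in controls (limma adjusted p = 7.2e-07). Scd1, a fatty acid desaturase, had 2 lower and 3 higher of 8, and one region 16324 bp away had a score of 0.577 ± 0.051 in knockouts and 0.0124 ± 0.030 in controls (SD, n = 5 and 6).

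In 49 regions of 10 amino acid response genes, many of them induced through ATF4, 12 were lower and 8 higher, with a median difference of -0.01. The share called was 40.8%, near the 37.8% of all regions. Slc7a11, the cystine transporter, had 6 higher and 2 lower of 12 regions. One of them, 31420 bp from the gene, had a score of 0.797 ± 0.063 in knockouts and 0.0384 ± 0.094 in controls (SD, n = 5 and 6). Vldlr, a lipoprotein receptor gene, was lower in 6 of 7 regions and higher in 0, with one region at 0.0214 ± 0.048 in knockouts and 0.624 ± 0.081 in controls. Sesn2, a stress-induced inhibitor of mTORC1 signalling, had 1 lower and 1 higher of 5.

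Among 10 genes that induce Cebpd or respond to glucocorticoids, 18 of 102 regions were lower and 21 higher, with a median difference of -0.02. The share called was 38.2%, near the 37.8% of all regions. Sgk1, a kinase induced by steroid hormones, had 10 higher and 2 lower of 18 regions, and one 80524 bp away had a score of 0.670 ± 0.035 in knockouts and 0.0196 ± 0.048 in controls (SD, n = 5 and 6). Nr3c2, the mineralocorticoid receptor gene, had 2 lower and 2 higher of 12. Socs3, the feedback inhibitor of the STAT3 signals that induce Cebpd, was lower in 4 of 12 regions and higher in 1, with one region at 0.552 ± 0.040 in knockouts and 0.785 ± 0.048 in controls (limma adjusted p = 3.63e-05).

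The 9 leucine zipper relatives and partners, Cebpe, Ddit3, Atf4 and Atf5 among them, had 3 lower and 3 higher of 32 regions. The share called was 18.8%, against 37.8% of all regions, with a median difference of 0.0088. Hlf, a PAR-domain factor, was higher in 2 of 6 regions and lower in 0, with one region at 0.401 ± 0.090 in knockouts and 0.0497 ± 0.122 in controls (SD, n = 5 and 6). Nfil3, a leucine zipper repressor, was lower in 2 of 7 and higher in 0. One of its regions had 0.0189 ± 0.042 in knockouts and 0.414 ± 0.209 in controls (SD, n = 5 and 6). Batf3 had 1 lower and 1 higher of 5.

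**Figure D4:**
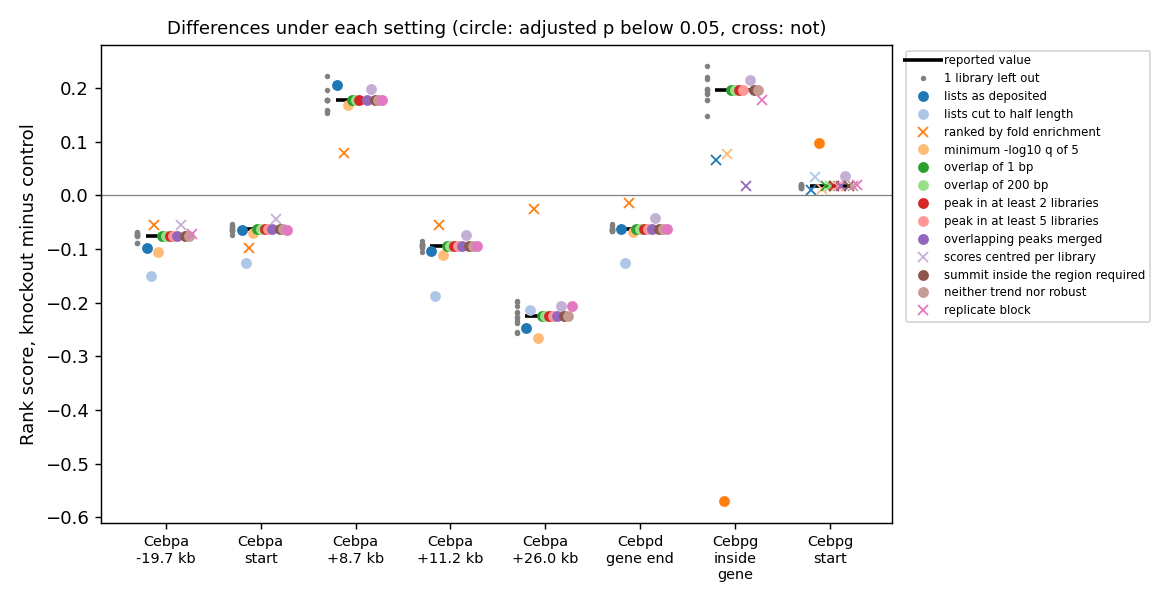
Differences in rank score (knockout minus control, vertical axis) at the 8 named regions under each processing setting, with the reported value as a black line, the 11 fits that leave out 1 library as grey dots, colours for the settings, and circles or crosses for adjusted p below or above 0.05. The +8.7 kb region met the filter through knockouts alone. Except for the region inside Cebpg ranked by fold enrichment (-0.57), each region keeps its sign.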

How the data were processed

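One peak list per library was analysed. Per the submitters' processing notes the build was mm10 and MACS2, DiffBind 3 and deepTools were used, with no roles given. The aligner and all options: not given in the sources used here. Deposited columns, read from their layout and values, are a fold enrichment (a ratio to background), a -log10 p and a -log10 q per peak, all made by the authors within each library, and a deposited score that was not used.

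Peaks were ranked by -log10 p. The score of a region is that of its best peak with a summit inside, or else of the best peak sharing 100 bp or more. Scores of 83262 regions were fitted on genotype alone with limma (version 3.58.1, robust, with a mean-variance trend; R 4.3.3), with Benjamini-Hochberg adjustment over all regions at 0.05. Fisher's exact test compared presence. Means per gene were given without a test. The fit was also run on simulated, normally distributed scores with known shifts. No zeros were set there for missing peaks and no scores were taken from a neighbouring summit. That run therefore does not bear on regions with such values. Genes were 21887 protein-coding genes of RefSeq GRCm38.p6. Tables were made with pandas 2.3.3, scipy 1.17.1 and numpy 2.4.6 under Python 3.11.15, and plots with matplotlib 3.10.9.

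Members and lists were chosen with earlier results of these data known. Named regions are those called by limma or Fisher's test and the strongest at a gene end of each member. Likeness was taken over genes with at least 3 regions (3 nearest per member), and lists name the 3 genes with the smallest p. Assigning regions by their whole extent in place of their centre, and requiring a summit inside, were chosen after seeing the data. Sequences of distal regions were not analysed here.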

Additional observations from a re-analysis of the deposited data

Results flagged for a closer look

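Within groups, 44 sets of library values were checked for a single value far from the others (Dixon's ratio, at the 95% level), and 10 were picked out. The level of 1 in 20 holds for independent, normally distributed values. Some of these sets hold zeros for missing peaks or scores of a neighbouring summit, so the 10 are not compared with chance. At Cebpd, knockout 4 (0.894, next 0.184) and control 6 (0.938, next 0.344) stood apart in the region 579 bp outside the gene, and control 4 (0.966, next 0.204) in the region at 15887439. At the main Cebpd summit knockout 5 was low (0.838, next 0.880). Upstream of Cebpa, at 19.7 kb, control 5 was low (0.658, next 0.723). In the region 740 bp before the Cebpa start knockout 5 had the only knockout peak (0.0869, others 0), and it was low in the region just inside the gene (0.0779, next 0.835). Its interval at the Cebpa start was also the widest of the knockouts (1203 bp, next 898 bp). Control 5 had no peak at 10.0 kb (0, next 0.323) and control 3 none at 27.2 kb (0, next 0.457). Where knockout 4, control 6 and control 4 stood high at Cebpd, they had no summit inside the region and carried the score of the main summit. At the Cebpa start, knockout 5 had its own weak summits on both sides, and its low value just inside the gene is the score of one of them.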

How the results depend on the processing

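Ranking by fold enrichment changed most: 0 Cebpa regions were lower and 0 higher. At Cebpg 1 region was lower and 1 higher, the higher one being the start region (difference 0.10, limma adjusted p = 0.00912). The mean differences became -0.228 at Cebpd and -0.237 at Cebpg, the second reversed. At Cebpd 1 region was still lower, not the main summit but the one at 15887439 (difference -0.448, limma adjusted p = 0.0415). There 4 of 6 controls and 0 of 5 knockouts carried the score of the main summit. At 15887935 to 15888334, 5 of 6 controls and 1 of 5 knockouts did (difference -0.411, limma adjusted p = 0.0745). The region inside Cebpg turned to -0.57 (limma adjusted p = 0.00755), where 5 of 6 controls and 0 of 5 knockouts carried the score of the start summit. Centring left 2 Cebpa regions lower and made 2 Cebpg regions higher. Presence of a peak, in limma or by Fisher's exact test, gave 0 lower regions at Cebpa and 0 at Cebpd. It gave 1 higher at Cebpa and 0 at Cebpg. The 4 Cebpa regions and 1 Cebpd region called lower had a peak in all 11 libraries, so presence could not call them lower. Fisher's exact test could pass at 1 of 10 Cebpa regions, the one at +8.7 kb that met the filter through knockouts alone. Half-length lists gave 0 higher at Cebpa and 0 at Cebpg, and a peak in at least 5 libraries gave 0 higher at Cebpa. The Cebpg gain was also lost (0 called) with lists as deposited, a -log10 q of at least 5 and overlapping peaks merged. The Cebpg mean difference, 0.106 in the main fit, then was 0.0384, 0.0439 and 0.0170, with half-length lists 0.0340, and assigned by region centre 0.196. With 1 library left out, 0 to 1 Cebpg regions were higher, 3 to 4 Cebpa regions lower, and the Cebpa start, +11.2 and +26.0 kb and Cebpd calls held. Of all called regions 55.1% were lower, against 67.4% for lists as deposited, 67.0% at that -log10 q and 45.9% centred.

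With the replicate block 3 regions were lower at Cebpa and 1 at Cebpd, 1 was higher at Cebpa, and 0 were higher at Cebpg. Same-numbered libraries deviated together with correlations of -0.0234 to 0.139, and 2 of 5 knockouts correlated best with the control of their number, so the numbers were not taken as pairs. Why these values moved was not tested. Depth is unknown. Lists of knockouts were shorter on average, at 81755.6 ± 5037.2 peaks against 95414.5 ± 12561.4 in controls (SD, n = 5 and 6), with overlapping ranges.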

Other observations

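Regions just outside the rule lay on both sides of the genes. Between Cebpg and Cebpa a strong region, 27509 bp from Gm45095 and at -34139 bp from the Cebpa start, had a mean score of 0.828 ± 0.051 in knockouts and 0.877 ± 0.022 in controls (SD, n = 5 and 6, limma adjusted p = 0.0808). Beyond Cebpa, 3 regions assigned to the amino acid transporter gene Slc7a10 had a peak in 3 or 4 of 5 knockouts and 4 or 5 of 6 controls, and none was called (limma adjusted p = 0.434, 0.416 and 0.572). Next to Cebpd, a region inside the DNA repair gene Spidr (chromosome 16, 15948217 to 15948616) had a peak in 4 of 5 knockouts and 1 of 6 controls, with means of 0.326 ± 0.188 and 0.0296 ± 0.073. A stronger Spidr region at 15958567 to 15958966 averaged 0.899 ± 0.034 in knockouts and 0.939 ± 0.020 in controls (limma adjusted p = 0.0497). The end of Mzt2, a gene of the microtubule nucleation complex, was higher at 15863222 to 15863621, with 0.937 ± 0.020 in knockouts and 0.886 ± 0.036 in controls (limma adjusted p = 0.0264). A weaker Mzt2 region next to it, at 15862709 to 15863108, had 0.375 ± 0.105 in knockouts and 0.522 ± 0.087 in controls (limma adjusted p = 0.0725). These neighbouring regions were chosen after the data were seen.

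In 54 regions of 10 genes from the chromosome neighbourhoods of the members, 13 were lower and 8 higher. The share called was 38.9%, near the 37.8% of all regions. Rhpn2 had a region at 35346140 to 35346539 with no peak in knockouts and 0.613 ± 0.066 in controls (SD, n = 5 and 6). Efcab1 had one 20565 bp away with 0.759 ± 0.043 in knockouts and no peak in controls. Spidr had 5 lower and 3 higher of 11 regions, one of them at 0.842 ± 0.040 in knockouts and 0.581 ± 0.064 in controls (limma adjusted p = 2.98e-05). The Spidr region at 15948217 and those of Rhpn2 and Efcab1 met the minimum of 3 libraries through 1 group, so they are given without a p.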
